A study of Mus musculus with 4 samples.

Results

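Claudins are the membrane proteins that build the strands of tight junctions, the seals between neighbouring cells of an epithelium or endothelium. The 10 genes described here are Cldn1, Cldn2, Cldn3, Cldn4, Cldn5, Cldn7, Cldn8, Cldn10, Cldn12 and Cldn23. They were followed through every probe set, a group of oligonucleotides on the array that reports a transcript, whose annotation named exactly 1 of them. That gave 18 probe sets out of 45101 on the array, for 10 of the 18193 genes with a probe set of their own. The samples came from transgenic mice whose aqueous humor held myocilin, a glycoprotein that cells secrete, and from control mice. The series asked what myocilin around the retina does to gene expression there. Total RNA of tissue labelled retina was read on 2 arrays of transgenic samples and on 2 arrays of 1 control sample, a technical pair according to the labels. Neither the strain, age and sex of the mice, nor the promoter of the transgene, nor a separate animal behind each transgenic array is stated in the labels, so the spread behind the p-values may be technical.

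Some claudins seal the space between cells, and others form pores that let chosen ions or water pass between them. Most carry a short C-terminal motif that binds the scaffold proteins of the zonula occludens family, which tie the strands to the actin cytoskeleton. In the eye, tight junctions close the tear-side surface of the corneal epithelium, the pigment epithelium of the outer blood-retina barrier, the ciliary epithelium that secretes aqueous humor, and the retinal vessels.

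The labelled tissue was checked against its marker genes, and most rod genes were dim while surface epithelium genes were bright. Of 10 rod genes with a probe set, 3 passed the filter on dim probe sets, which lay at a signal of about 30.0, and 0 of 10 had a mean signal above 150, the trimmed mean of every array. Of 18 markers of corneal and surface epithelium, 16 had a mean signal above 150. Krt12, the keratin of corneal epithelium, had signals of 13020 and 13173 on the transgenic arrays and 11441 and 10972 on the control arrays. Of 12 pigment epithelium and melanocyte markers, 11 had a mean signal above 150, as did 9 of 10 skeletal muscle markers. Tissue other than retina was thus in the samples, despite the label, and the claudin values cannot be assigned to retina. Over all 27022 probe sets tested, log2 differences had an SD of 0.32 between the transgenic arrays and of 0.30 between the control arrays. In bulk tissue, fewer cells of a type and less RNA per cell cannot be told apart.

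No claudin passed the test between transgenic and control samples. Signals were compared as log2(signal + 16) with limma, in which the control pair counted as 1 sample. Of the 16 claudin probe sets that passed the filter, which covered all 10 genes, 0 had an adjusted p under 0.05, while 0.0777% of all probe sets tested did. At an unadjusted p under 0.05 there were 2 of 16, against 7.06% of all probe sets. These 2 were the probe set of Cldn10, higher in the transgenic samples as 4.14% of all probe sets were at that p, and 1 of the 4 probe sets of Cldn3, lower in them as 2.92% were. Across the 16, 7 log2 changes lay above 0 and 9 below, against 46.9% and 53.1% of all probe sets, with a median of -0.016, beside -0.018 over all probe sets tested. The arrays of the groups did not overlap for 6 of 16, or 37.5%, where 44.7% of all probe sets did not. Of the 6, 3 were higher and 3 lower on both transgenic arrays, against 21.1% and 23.6% of all. By probe set these shares lie near the background, but the 4 probe sets of Cldn3 all count among the 9 below 0. With the brightest probe set of each gene, 6 of 10 genes lay above 0 and 4 below, with a median of 0.038. Of these 10, 2 were higher and 1 lower without overlap, against the same shares of all probe sets. In that count, 1 was higher and 0 lower at a limma unadjusted p under 0.05. Every 95% interval of a claudin change lay within 1 of 0 on the log2 scale (16 of 16), and 14 of 16 included 0.

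**Figure D1:**
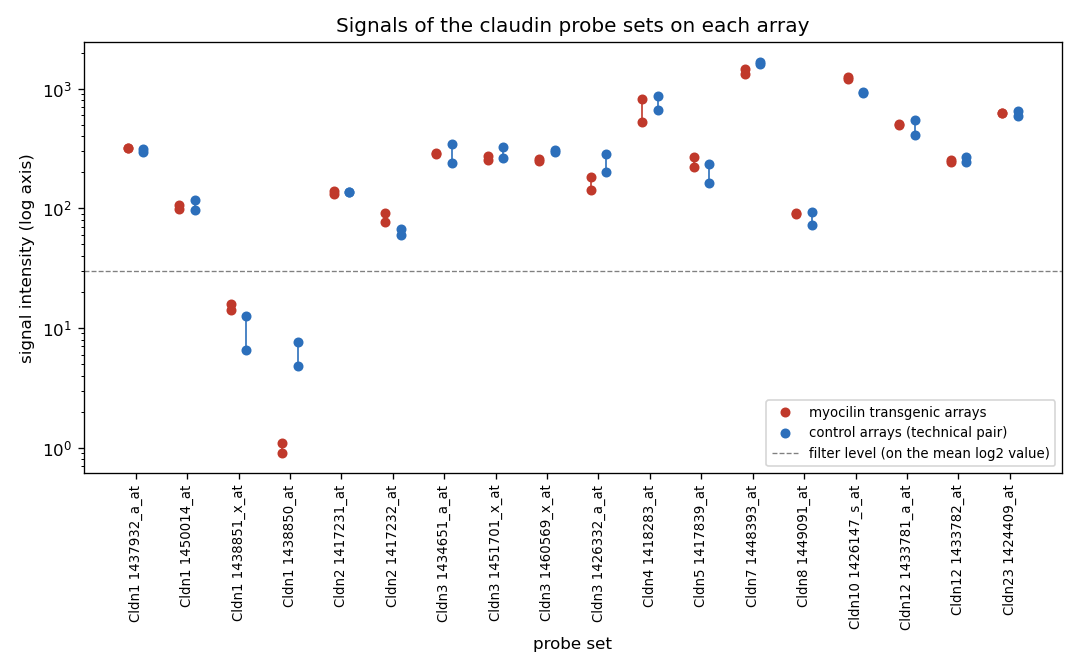
Signal intensity (log axis) of the 18 claudin probe sets, with the 2 transgenic arrays in red to the left of the 2 arrays of the control sample in blue and lines joining arrays of a group. The dashed line marks the filter level of 30.0, and 2 Cldn1 probe sets lie under it. Of the 16 tested, 6 separate by group, Cldn10 among them, where 44.7% of all probe sets do. Those of Cldn4 and Cldn5 overlap.

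The promoters of 3 of these genes are shown because they stand beside the results that follow: Cldn10, the gene with the lowest p, and Cldn3 and Cldn4, which are neighbours on chromosome 5. Promoters were matched by symbol in RefSeq sequences of build GRCm38.p6, and 8 of the 10 genes had a match, with 12 start sites between them. Each line gives the 250 bases before a start site, 5′ to 3′ on the gene's strand. Capitals mark the GC box GGGCGG, bound by the Sp and related zinc finger factors, the E-box CACCTG, a site of Snail repressors, and TATAAA, each searched on both strands.
Cldn10, chr14:118787621-118787870, plus strand: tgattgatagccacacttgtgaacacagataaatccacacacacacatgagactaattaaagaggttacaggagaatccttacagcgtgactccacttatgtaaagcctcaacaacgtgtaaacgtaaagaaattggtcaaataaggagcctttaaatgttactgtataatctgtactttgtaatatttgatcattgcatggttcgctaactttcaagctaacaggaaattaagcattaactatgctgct
Cldn10, chr14:118854700-118854949, plus strand: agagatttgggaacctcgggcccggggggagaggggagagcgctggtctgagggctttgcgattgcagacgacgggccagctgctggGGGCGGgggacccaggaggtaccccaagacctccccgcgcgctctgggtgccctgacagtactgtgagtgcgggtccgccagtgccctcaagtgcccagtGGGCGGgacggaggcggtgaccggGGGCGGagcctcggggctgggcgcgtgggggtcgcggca
Cldn3, chr5:134985964-134986213, plus strand: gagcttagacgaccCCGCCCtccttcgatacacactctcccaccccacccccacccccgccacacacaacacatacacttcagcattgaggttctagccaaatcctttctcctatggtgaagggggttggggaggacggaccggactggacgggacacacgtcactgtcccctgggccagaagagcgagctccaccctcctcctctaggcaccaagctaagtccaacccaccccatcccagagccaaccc
Cldn4, chr5:134946935-134947184, minus strand: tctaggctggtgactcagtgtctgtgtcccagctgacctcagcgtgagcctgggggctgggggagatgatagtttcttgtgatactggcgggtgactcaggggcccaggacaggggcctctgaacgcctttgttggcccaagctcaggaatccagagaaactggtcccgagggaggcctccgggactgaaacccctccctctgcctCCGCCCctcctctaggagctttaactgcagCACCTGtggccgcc

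The start sites of Cldn10 differ in sequence. The upstream window holds 36.0% G and C and none of the 3 motifs, while the downstream window holds 72.4% G and C and 3 GC boxes, 163, 63 and 39 bases before the start. The array signal does not say which start was used. Cldn3 has 1 GC box, 236 bases before the start, and Cldn4 has 1 at 44 bases and 1 E-box at 14 bases. A GC box is found in 8 of the 12 claudin windows and in 32.7% of all 32851 windows of this length. Of these 8 windows, 2 belong to start sites of Cldn12, overlap each other and hold the same GC box. The E-box is found in 2 of 12, those of Cldn4 and of the downstream start of Cldn7, and in 17.2% of all. TATAAA is found in 1 of 12, that of Cldn2, and in 12.4% of all. A match is a run of letters and not a measured site.

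Among the pore-forming claudins, Cldn10 gave the smallest p of the family. Its isoforms form pores for cations or anions, depending on the first exon. Signals of Cldn10 were 1211 and 1261 on the transgenic arrays and 942 and 913 on the control arrays. Both transgenic arrays were higher than both control arrays, and the arrays within each group lay close together, 0.057 apart in transgenic and 0.044 apart in control samples on the log2 scale. The log2 change of Cldn10 was 0.41 ± 0.11 (SE), a fold of 1.33, with a 95% interval from 0.17 to 0.65. With a limma unadjusted p of 0.00327 and an adjusted p of 0.384, it did not pass. Probe set 1426147_s_at carries the suffix of probe sets that may read transcripts of more than a single gene.

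Cldn2, on the X chromosome, forms channels for sodium and water. Its brighter probe set, 1417231_at, had signals of 139 and 130.4 on the transgenic arrays and 136 and 137 on the control arrays, so the groups overlapped and the log2 change was -0.018 ± 0.20 (SE). The dimmer probe set of Cldn2, 1417232_at, had signals of 76.6 and 91.6 on the transgenic arrays and 60.03 and 66.8 on the control arrays. On this probe set both transgenic arrays were higher, with a log2 change of 0.33 ± 0.26 (SE) and a limma adjusted p of 0.879. The pair of probe sets thus placed Cldn2 at different values, and neither interval excluded 0: they ran from -0.46 to 0.42 and from -0.24 to 0.90. Of 4 sex-linked genes with a probe set, 1 passed, where 0.0777% of all probe sets tested did. Y-linked Eif2s3y fell by 1.15 in log2 signal (limma adjusted p = 0.0372), and Xist, the RNA of the inactive X, had a log2 difference of 0.42 (adjusted p = 0.473). Signals of Eif2s3y were 160 and 154 on the transgenic arrays and 370 and 364 on the control arrays. Those of Xist were 1654 and 2058 against 1400 and 1348 on the control arrays, so both genes were read on every array. The sex and number of animals behind an array were not tested. On the Y chromosome, Uty stood at -0.75 and Kdm5d at -0.43 (adjusted p = 0.446 and 0.822). Of these 4 genes, 1 was higher and 3 were lower on both transgenic arrays, against 21.1% and 23.6% of all probe sets. The part of sex-linked differences in the values of Cldn2 or of any other gene was not tested.

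Cldn3 was read by 4 probe sets, which gave log2 changes between -0.53 and -0.014. Cldn3 is a sealing claudin of many epithelia. On 1426332_a_at its signals were 184 and 141 on the transgenic arrays and 202 and 284 on the control arrays. The groups did not overlap, but the control arrays differed from each other by 0.46 and the transgenic arrays by 0.35 on the log2 scale. The log2 change was -0.53 ± 0.20 (SE), with a 95% interval from -0.97 to -0.094, an unadjusted p of 0.0214 and a limma adjusted p of 0.612. Without control array 1 the difference was -0.76 (limma unadjusted p = 0.00248), and without control array 2 it was -0.30 (unadjusted p = 0.165). On 1460569_x_at signals of Cldn3 were 249.9 and 258 on the transgenic arrays and 294 and 306 on the control arrays, again without overlap, with a log2 change of -0.23 ± 0.16 (SE; adjusted p = 0.847). The other two overlapped. Signals on 1451701_x_at were 275 and 254 on the transgenic arrays and 265 and 326 on the control arrays, and on 1434651_a_at they were 282 and 289.8 against 239.6 and 347 on the control arrays. Their log2 changes were -0.15 and -0.014. On 1451701_x_at the difference was -0.29 without control array 1 and -0.0030 without control array 2. The suffix x marks probe sets with oligonucleotides that may bind other transcripts, and 2 of the 4 carry it. All 4 were read from the same samples, so they are not replicates.

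Cldn4, the neighbour of Cldn3 and a target of the same bacterial enterotoxin, seals against cations in several epithelia. It had signals of 525 and 819 on the transgenic arrays and 667 and 874 on the control arrays. The groups overlapped, and the transgenic arrays were 0.63 apart on the log2 scale. With a log2 change of -0.21 ± 0.20 (SE) and a 95% interval from -0.65 to 0.23, Cldn4 did not pass (limma adjusted p = 0.908). Without transgenic array 1 its difference was 0.099, and without transgenic array 2 it was -0.53.

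Cldn7, which sits along the sides of epithelial cells and binds the adhesion molecule EpCAM, had signals of 1448 and 1318 on the transgenic arrays and 1599 and 1668 on the control arrays. Both transgenic arrays were lower than both control arrays. The log2 change of Cldn7 was -0.24 ± 0.11 (SE), a fold of 0.847, with a 95% interval from -0.48 to 0.0030 and a limma adjusted p of 0.715. Epcam, its partner, had signals of 663 and 627 on the transgenic arrays and 732 and 745 on the control arrays, a log2 difference of -0.19 (adjusted p = 0.827).

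Cldn1, a sealing claudin needed for the barrier of the epidermis, was near 0 on both of its tested probe sets. Signals on 1437932_a_at were 317 and 318 on the transgenic arrays and 298 and 311 on the control arrays. The transgenic arrays lay above both control arrays by a small margin, with a log2 change of 0.057 ± 0.15 (SE; limma adjusted p = 0.980). On 1450014_at signals of Cldn1 were 107 and 98.7 on the transgenic arrays and 118 and 96.5 on the control arrays, with overlap and a log2 change of -0.047 ± 0.22 (SE). The remaining probe sets of Cldn1 were too dim to be tested. Signals of 1438851_x_at were 15.9 and 14.2 on the transgenic arrays and 6.53 and 12.7 on the control arrays, and those of 1438850_at were 0.894 and 1.09 on the transgenic arrays and 4.77 and 7.63 on the control arrays. These dim probe sets pointed in opposite directions.

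Cldn5 and Cldn8 also overlapped between the groups. Cldn5, the main claudin of the endothelium of the blood-brain and blood-retina barriers, had signals of 270.1 and 219.9 on the transgenic arrays and 161 and 232 on the control arrays. Its log2 change was 0.31 ± 0.18 (SE), with a 95% interval from -0.085 to 0.70 and a limma adjusted p of 0.803, while the technical pair of control arrays differed by 0.49. Without control array 1 the log2 difference of Cldn5 was 0.066, and without control array 2 it was 0.55. Among 15 tested vascular endothelium markers, 8 lay above and 7 below 0, with a median of 0.018, and none passed the limma test (0 of 15, also 0 at an unadjusted p under 0.05). Summed over the 16 markers with a probe set, signals were 7206 and 7933 on the transgenic arrays and 6929 and 7333 on the control arrays. Most of that sum came from Slc2a1, a glucose transporter gene that other cells also use. The other 15 markers summed to 1713 and 1649 on the transgenic arrays and 1842 and 1789.6 on the control arrays. With Slc2a1 the sums of the groups overlapped, and without it both transgenic sums lay below both control sums. The smaller sum still holds Ocln, which also stands on the list of other tight junction membrane genes. Its signals were 301 and 337 on the transgenic arrays and 334 and 372 on the control arrays, and no sum was made without it. The part of vessels in the Cldn5 signal was not tested. Cldn8, a claudin of the distal kidney tubule that acts with Cldn4, had signals of 90.6 and 90.2 on the transgenic arrays and 72.8 and 92.3 on the control arrays, and a log2 change of 0.12 ± 0.24 (SE).

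Cldn12 and Cldn23 are less studied members. Cldn12 lacks the C-terminal motif by which most claudins bind scaffold proteins. On 1433781_a_at it had signals of 499 and 509 on the transgenic arrays and 411 and 544 on the control arrays. On 1433782_at signals of Cldn12 were 254 and 244 on the transgenic arrays and 269 and 244 on the control arrays. Both overlapped between groups, with log2 changes of 0.087 ± 0.13 and -0.038 ± 0.16 (SE). Cldn23 had signals of 629 and 622 on the transgenic arrays and 648 and 588 on the control arrays. Its transgenic arrays lay between the control arrays, and the log2 change of 0.018 ± 0.12 (SE) had a 95% interval from -0.25 to 0.29.

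**Figure D2:**
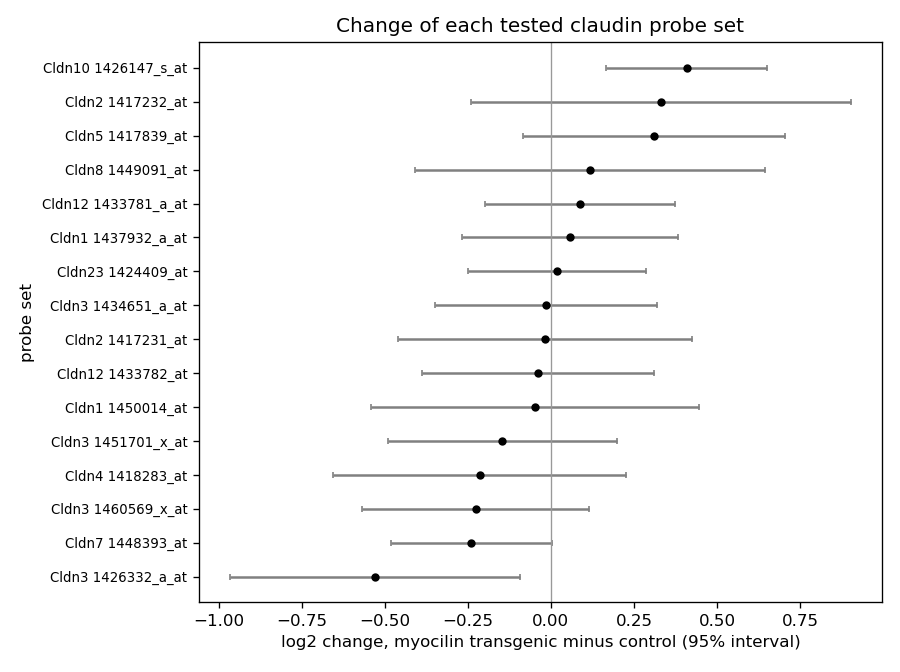
Log2 change, transgenic minus control, of the 16 tested claudin probe sets (points) with 95% intervals from limma (bars). Cldn10 at 0.41 and the Cldn3 probe set 1426332_a_at at -0.53 have intervals that exclude 0, and the other 14 include it.

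The claudin differences were set against the spread within each group. For 10 of the 16 tested probe sets the absolute change between groups was smaller than the absolute difference between the control arrays, against 49.8% of all probe sets. The control arrays were 0.25 or more apart on the log2 scale for 8 of 16 claudin probe sets, against 31.1% of all probe sets, and the transgenic arrays for 3 of 16, against 33.9%. On 12 of 16 the second control array was above the first, where 50.4% of all probe sets were. Several of these readings share a gene, as the 4 of Cldn3 do. Median absolute differences of the claudins were 0.071 between the transgenic arrays and 0.20 between the control arrays, beside 0.17 and 0.15 over all probe sets.

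**Figure D3:**
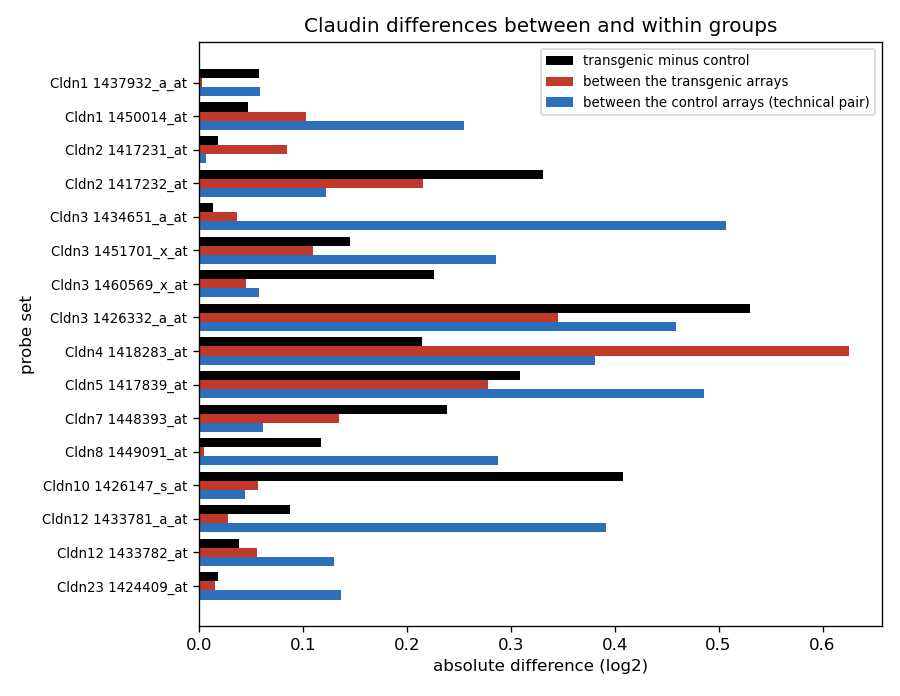
Absolute log2 difference for each tested claudin probe set between the groups (black), between the transgenic arrays (red) and between the technical pair of control arrays (blue). For Cldn10 the black bar of 0.41 exceeds the others at 0.057 and 0.044, while for Cldn4 the difference between the transgenic arrays, 0.63, is the widest.

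Other claudins were mostly dim. Of 12 further genes of the list with a claudin name, 4 were tested and 0 passed in limma. Lower at an unadjusted p under 0.05 was 1 of 4, against 2.92% of all probe sets. That gene was Cldnd1, a claudin domain gene. It had signals of 682 and 660.0 on the transgenic arrays and 862 and 805 on the control arrays, a log2 difference of -0.31 ± 0.12 (SE; adjusted p = 0.631). Cldn19, a claudin of Schwann cells and pigment epithelium, had signals of 41.2 and 23.6 on the transgenic arrays and 37.9 and 45.3 on the control arrays.

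The genes that work with claudins were read from lists, with each gene represented by its brightest probe set. The shares of all probe sets given beside any list cover every probe set tested, dim ones included. They are not shares among equally bright probe sets, which were not computed. Some genes stand on more than a single list, so the lists are not separate readings. Of 19 tight junction scaffold and polarity genes, 0 passed in limma. The list had 6 log2 changes above and 13 below 0, a median of -0.087, and 3 genes at an unadjusted p under 0.05, all lower, where 2.92% of all probe sets were lower at that p. Tjp1, which encodes the scaffold ZO-1, had signals of 1579 and 1498 on the transgenic arrays and 2019 and 1925 on the control arrays, without overlap. Its log2 difference was -0.36 ± 0.10 (SE; adjusted p = 0.422). Tjp3, a related scaffold gene, stood at -0.35 and Afdn, the gene of afadin, at -0.34, both also without overlap, while Pard6a, a polarity gene, stood at 0.44 (adjusted p between 0.631 and 0.827 for the 3).

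Of 11 tested tight junction membrane genes other than claudins, 0 passed in limma and 1 was lower at an unadjusted p under 0.05 (2.92% of all probe sets), with 2 above and 9 below 0 and a median of -0.11. That gene was F11r, which encodes the adhesion molecule JAM-A, with signals of 1287 and 1295 on the transgenic arrays and 1484 and 1563 on the control arrays (log2 difference -0.24, adjusted p = 0.698). Ocln, the gene of occludin, overlapped between groups, at 301 and 337 on the transgenic arrays and 334 and 372 on the control arrays. Of 16 adherens junction genes and claudin partners, 0 passed in limma and 3 were lower at an unadjusted p under 0.05 (2.92% of all probe sets), with 4 above and 12 below 0 and a median of -0.20. Cdh1, which encodes E-cadherin, had signals of 1714 and 1521 on the transgenic arrays and 2436 and 2331 on the control arrays. Its log2 difference of -0.56 ± 0.11 (SE) had an adjusted p of 0.212. Ctnnd1, the gene of p120 catenin, stood at -0.53 and Spint2, an inhibitor of epithelial proteases, at -0.38, each without overlap between groups.

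Among markers of tissues that could contribute to these signals, 2 pigment, 3 muscle and 1 surface epithelium gene passed. Of all probe sets tested, 0.0777% did. All 12 epithelial transcription factors lay below 0 (12 of 12, where 53.1% of all probe sets did), with a median of -0.32, but 0 passed in limma. At an unadjusted p under 0.05 and lower there were 6 of 12, against 2.92% of all probe sets. Esrp1, a splicing regulator of epithelia counted in that list, had signals of 538 and 498 on the transgenic arrays and 896 and 755 on the control arrays (log2 difference -0.65, adjusted p = 0.204). Of 17 tested markers of corneal and surface epithelium, 1 passed, Muc4, a membrane mucin, which fell by 0.79 on the log2 scale (limma adjusted p = 0.0324), and 6 lay above and 11 below 0. At an unadjusted p under 0.05, 7 of the 17 were lower and 1 higher, against 2.92% and 4.14% of all probe sets. Among these 7, Cdh1 was also counted with the claudin partners and Trp63 with the epithelial transcription factors, each on the same probe set. Summed over the 18 markers with a probe set, signals were 75300.4 and 79777 on the transgenic arrays and 79639 and 80405 on the control arrays. The brightest genes weigh most in that sum, such as Krt12, with a log2 change of 0.22. By gene, 11 of the 17 were lower and 4 higher without overlap, against 23.6% and 21.1% of all probe sets. Pigment epithelium and melanocyte markers lay above 0 for 10 of 11, where 46.9% of all probe sets did, with a median of 0.47. Rpe65, the retinoid isomerase, rose by 1.24 and Rgr, a retinal opsin-like receptor, by 1.06 (adjusted p = 0.00581 and 0.00699). Summed over the 12 with a probe set, signals were 44842 and 48826 on the transgenic arrays and 37751 and 37632 on the control arrays. Skeletal muscle markers lay above 0 for 10 of 10, against the same 46.9%, with a median of 0.48, and 3 passed, namely Mb, Myl1 and Mylpf. The muscle signals summed to 21875 and 21828 on the transgenic arrays and 13674 and 13965 on the control arrays. No gene of these lists was at 0 on any array (0 listed). The part of these tissues in the values of Cldn10, Cldn7 and Cldn3 was not tested.

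**Figure D4:**
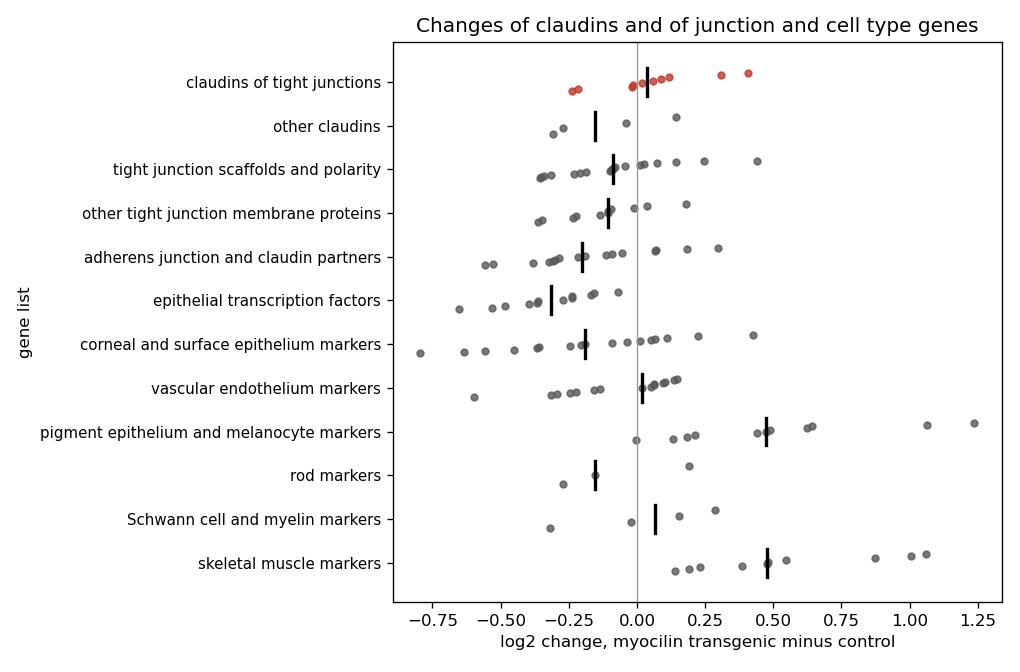
Log2 change, transgenic minus control, of each tested gene on its brightest probe set (points), with the median of each list as a black bar. The 10 claudins in red spread from -0.24 to 0.41 around 0.038, while the 12 epithelial transcription factors all lie below 0 and the 10 muscle markers all lie above 0.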

How the data were processed

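Total RNA was hybridised to 1-colour Affymetrix arrays, 2 of transgenic samples and 2 of 1 control sample. The deposited values were linear signal intensities. The software that made them is not given in the sources used here. After trimming 2% at either end, each array had a mean of 150, and they were used as deposited. Of 45101 probe sets, 64 array controls were left out. The platform annotation gave 34958 probe sets 1 symbol, 932 several and 9211 none. All 18 claudin probe sets kept their symbol in RefSeq by gene identifier.

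Values were taken as log2(signal + 16), which understates changes of dim probe sets. Probe sets above the 40th percentile of the mean log2 value, 27022 in all, were tested with limma 3.58.1 in R 4.3.3, two-sided, with variances moderated along the intensity trend and Benjamini-Hochberg adjustment at 0.05. Control arrays were averaged as 1 sample, which left 1 residual degree of freedom and 10.3 prior ones, and the spread of the transgenic samples stood in for that of the control sample. The number of arrays limits the precision. The model was tested on simulated data. There the share of false calls exceeded the threshold of 0.05, and most of the changes put in were missed at every size but the largest. All claudin changes were smaller than the smallest put in.

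The claudins and gene lists were chosen with earlier results of these data known. From each list, genes past the threshold and up to 4 with the largest absolute change could be named. Krt12, Epcam, Ocln, Slc2a1 and Trp63 were named outside this rule, after their values were seen. The vascular sum without Slc2a1 was added then as well. Alternatives covered the scaling, pseudocount, filter, moderation, handling of the control pair, the replicate number as a block, each array left out, and the choice among the probe sets of a gene.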

Additional observations from a re-analysis of the deposited data

How the results depend on the processing

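Over all alternatives tried, 212 of 227 values for single claudin probe sets kept their direction, and 8 of 16 probe sets kept it in every alternative, Cldn10 between 0.38 and 0.44 among them. Alternatives in the filter, in the moderation, or with the 4 arrays as separate samples leave the log2 change itself unchanged. They could not reverse a direction, so the count of 212 overstates how firm the directions are. No claudin passed in limma, higher or lower, except when the 4 arrays were taken as separate samples with the replicate number as a block. There 1 rose, Cldn10 (adjusted p = 0.000389), and 2 fell, Cldn7 (0.0282) and Cldn3 on 1426332_a_at (0.0348), among 1740 probe sets called in all. The labels do not say that the numbers pair the samples. The difference between arrays 1 and 2 correlated by 0.096 between the groups, across probe sets, which are not independent replicates. The block fit also treats the technical control pair as separate samples. The same arrays without the block gave 135 calls. The count of 21 probe sets, 15 higher and 6 lower, became 39 after quantile normalization, 20 of them higher, 56 after median centring, 47 of them higher, 0 without the filter and 0 without the intensity trend, where 2181 and 1059 had an unadjusted p under 0.05. Leaving out a control array gave between 14 and 33, the higher count without the second. Without a transgenic array there is no test.

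The median log2 change of the claudin probe sets, -0.016, became 0.038 with 1 probe set for each gene, 0.012 after quantile normalization and 0.014 after median centring, and ran from -0.024 to 0.014 with an array left out. Changes of sign came with these values. Cldn2 on 1417231_at was 0.016 after quantile normalization, 0.012 after median centring and 0.16 as the mean over its probe sets. Cldn3 on 1434651_a_at was 0.0094 after quantile normalization and 0.017 after median centring. With an array left out, Cldn3 on 1434651_a_at ran from -0.27 to 0.24 and Cldn2 on 1417231_at from -0.060 to 0.024. Cldn1 on 1450014_at ran from -0.17 to 0.080, Cldn4 from -0.53 to 0.099 and Cldn8 from -0.026 to 0.26. Cldn12 ran from -0.11 to 0.28 on 1433781_a_at and from -0.10 to 0.027 on 1433782_at, and Cldn23 from -0.050 to 0.087. The cause was not tested.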
